A study of Homo sapiens with 6 samples.

Results

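The levels of NFE2L2, which encodes the transcription factor NRF2, of its inhibitor KEAP1 and of 7 antioxidant genes that NRF2 is known to activate were examined in breast cancer cells with and without knockdown of mesothelin (MSLN). The 9 genes (NFE2L2, KEAP1, GCLC, GCLM, TXNRD1, SRXN1, NQO1, HMOX1 and AKR1B10) were chosen by symbol, with no measured value in the rule. Earlier results of these data were known when these genes and the lists used below were chosen. All 9 were found among the 17860 genes of the table, had a value in every sample and passed the filter on low counts, as did 14552 genes in all.

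Bulk RNA-Seq had been performed on HCC1806/HM3 cells, 3 samples with a control shRNA (shNC) and 3 with an shRNA against MSLN (shMSLN). HCC1806 is an established human triple-negative breast cancer line, described in the labels as a squamous cell carcinoma, and HM3 is a derivative selected through passages in mice for growth in the liver. Both groups therefore carry the same selected background and a lentiviral shRNA vector with a drug selection marker, and they differ in the shRNA target. A pair of shRNAs against human MSLN is listed for the study, and the labels of the sequenced cells say only shMSLN. Whether all shMSLN samples carry the same shRNA is therefore not known, and a single line may stand for the knockdown. The labels do not say whether the samples of a group came from separate cultures, so the p-values measure the spread between these samples, which may be technical.

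MSLN itself was at 228 ± 2.43 CPM (read counts scaled to library size, mean ± SD, n = 3) in shNC and 36.2 ± 0.895 CPM in shMSLN samples, which is 15.9% of the control level. The samples held 17507837 to 18512135 estimated reads each. The share of whole-number counts among genes over 100 reads was 47.7% in shMSLN replicates 2 and 3. In the other samples it was between 3.36% and 7.02%. NFE2L2, KEAP1, HMOX1, GCLC, TXNRD1 and SRXN1 had whole counts in shMSLN replicates 2 and 3, whereas NQO1, GCLM and AKR1B10 had none in any sample. Member results are therefore also given with shMSLN replicate 1 alone, an alternative chosen after seeing the data. Summed TPM (the deposited level per transcript length) of 6 squamous and basal markers was 2715 to 2985 in shNC and 2311 to 2357 in shMSLN samples, with KRT5 abundant and KRT14 low (4.58 to 5.92 TPM in the 6 samples), and their part in the results was not tested. The members of this list did not move one way. KRT5 (log2 fold change -0.38), KRT6A (-1.04) and TP63 (-0.22) fell, DSG3 (0.84) and KRT17 (0.16) rose, and KRT14 was not called (edgeR), and KRT5 made up most of the sum. Markers of leukocytes summed to 8.03 to 8.84 TPM in shNC and 9.76 to 11.3 TPM in shMSLN, those of fibroblasts to 11.95 to 12.48 and 12.9 to 13.6 TPM, those of endothelium to 2.39 to 2.83 and 2.46 to 2.86 TPM, and those of hepatocytes to at most 0.37 TPM. In bulk RNA, fewer cells of a type and less RNA per cell cannot be told apart.

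NRF2 is a basic leucine zipper protein that pairs with small MAF proteins and binds antioxidant response elements in the promoters and enhancers of its target genes. In unstressed cells KEAP1 holds NRF2 and presents it to the CUL3 ubiquitin ligase for degradation, and oxidants or electrophiles that modify KEAP1 let newly made NRF2 accumulate. Because this control acts on the protein, mRNA levels of NFE2L2 and KEAP1 do not by themselves report NRF2 activity, which is usually read from the target genes.

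Stretches of promoter that hold the letters of the antioxidant response element core are shown first, because this element is what ties the target genes to NRF2. RefSeq promoters (GRCh38.p14, from 250 bases before to 50 bases after each start site) were found for 7 of the 9 genes and searched on both strands for TGACNNNGC. The letters were present in 4 of the 10 promoters of these genes, against 13.3% of all 35116 promoters. By gene, 3 of 7 held them in any promoter, against 16.1% of all 27305 genes and 16 of 40 other NRF2 target genes. The windows below run 5′ to 3′ on the strand that carries the motif, which is in capitals. The GCLM window lies at chr1:93909446-93909474 on the plus strand, opposite to the gene, and straddles the outer edge of the annotated gene. The TXNRD1 windows lie at chr12:104215670-104215698 (plus strand, outside the gene), chr12:104215761-104215789 (minus strand, across the gene's outer edge) and chr12:104286920-104286948 (minus strand, in an annotated UTR exon before a second start site). The KEAP1 windows lie at chr19:10502807-10502835 (minus strand, the strand of the gene) and chr19:10502784-10502812 (plus strand), both in a UTR exon and before a start site that lies inside the annotated gene.
GCLM, 34 bases before the start: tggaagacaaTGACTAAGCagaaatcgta
TXNRD1, 99 bases before the first start: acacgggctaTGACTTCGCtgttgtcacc
TXNRD1, 8 bases before the first start: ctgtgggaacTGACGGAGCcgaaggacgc
TXNRD1, 102 bases before another start: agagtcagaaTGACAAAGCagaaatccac
KEAP1, 54 bases before an internal start: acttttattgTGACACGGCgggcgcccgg
KEAP1, 31 bases before an internal start: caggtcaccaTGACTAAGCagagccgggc

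The windows of NFE2L2, NQO1, GCLC and SRXN1 did not hold these letters, which says nothing of elements farther away. TGANTCA, a loose form of the related AP-1 core, was in 0 of these 10 promoters and in 7.71% of all promoters. By gene it was in 0 of 7, against 9.37% of all genes and 6 of 40 other NRF2 target genes. These differences were not tested, and the promoters are few. Of the genes with a match, GCLM and TXNRD1 were lower in shMSLN cells and KEAP1 was not called, and of those without, NFE2L2, SRXN1 and NQO1 were lower and GCLC was not called. A match of letters is a description of the sequence and was not tested for binding.

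Per transcript length, NFE2L2 was the most abundant of the 9 mRNAs, at 330.5 ± 13.2 TPM in shNC and 274.6 ± 4.62 TPM in shMSLN samples (mean ± SD, n = 3 each), above 97.6% of the 16573 genes with a value in every sample. NQO1 followed at 204 ± 10.0 and 183 ± 0.732 TPM, and TXNRD1 at 169 ± 1.58 and 152 ± 0.965 TPM. The middle of the order was held by GCLC at 88.0 ± 0.197 and 89.6 ± 2.70 TPM and KEAP1 at 74.5 ± 2.64 and 73.6 ± 5.54 TPM. SRXN1 was at 56.2 ± 2.09 and 39.6 ± 1.10 TPM, and GCLM at 33.7 ± 0.919 and 27.5 ± 1.12 TPM. HMOX1 was at 16.5 ± 0.895 and 16.2 ± 1.67 TPM, near the middle of all genes (above 52.6%), and AKR1B10 was barely detected, at 1.56 ± 0.0945 and 1.65 ± 0.517 TPM. The order was the same in 6 of 6 samples, and the ranges of neighbouring genes did not overlap within either group for any of the 8 neighbouring pairs. In both groups, NQO1 and TXNRD1 were the most abundant of the target mRNAs, and HMOX1 and AKR1B10 the least.

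**Figure D1:**
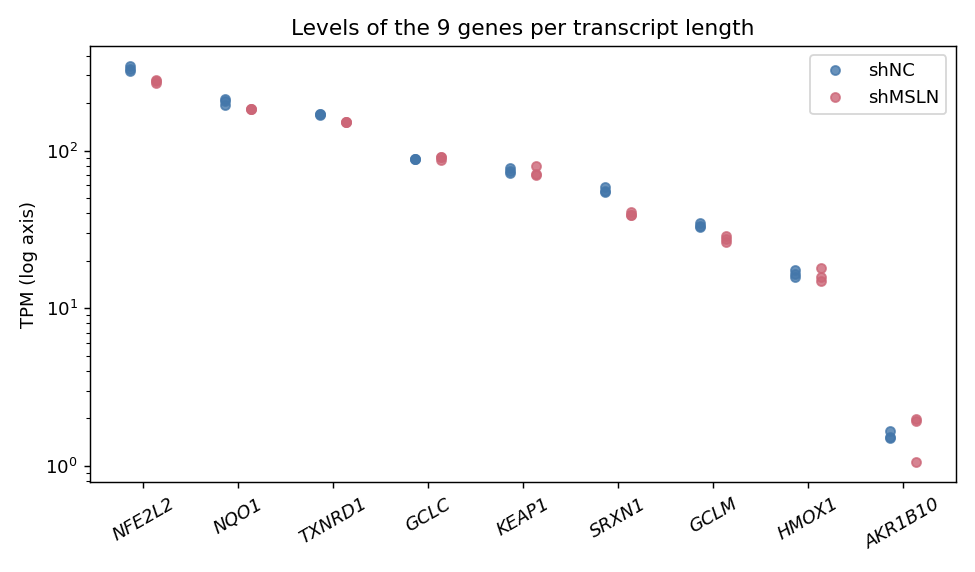
TPM (log axis) of the 9 genes, one point per sample, with 3 shNC and 3 shMSLN samples. The genes stand in the same order in every sample, from NFE2L2 (330.5 TPM on average in shNC) to AKR1B10 (1.56 TPM).

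The comparison of shMSLN with shNC cells asks which of these genes changed when MSLN was knocked down. In the edgeR quasi-likelihood fit, with p-values adjusted over all 14552 genes by the Benjamini-Hochberg method, 5 of the 9 genes were lower in shMSLN cells (NFE2L2, GCLM, TXNRD1, SRXN1 and NQO1), against 18.0% of all genes tested. None was higher (0 of 9, also 0 at an unadjusted p below 0.05 and 0 with DESeq2 or limma-voom), against 16.6% of all genes. The remaining 4 were not called, and 34.6% of all genes were called in either direction. Under upper-quartile scaling 2911 of all genes were called higher and 2149 lower, against 2411 and 2621 here, while the same 5 of the 9 genes were lower. The median log2 fold change was -0.19 over the 9 genes and 0.0019 over all genes tested. The changes were small, with 1 of the 9 past 0.5 on the log2 scale, against 1581 of all 14552 genes. The median size regardless of sign was 0.19 over the 9 genes and 0.14 over all genes tested.

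**Figure D2:**
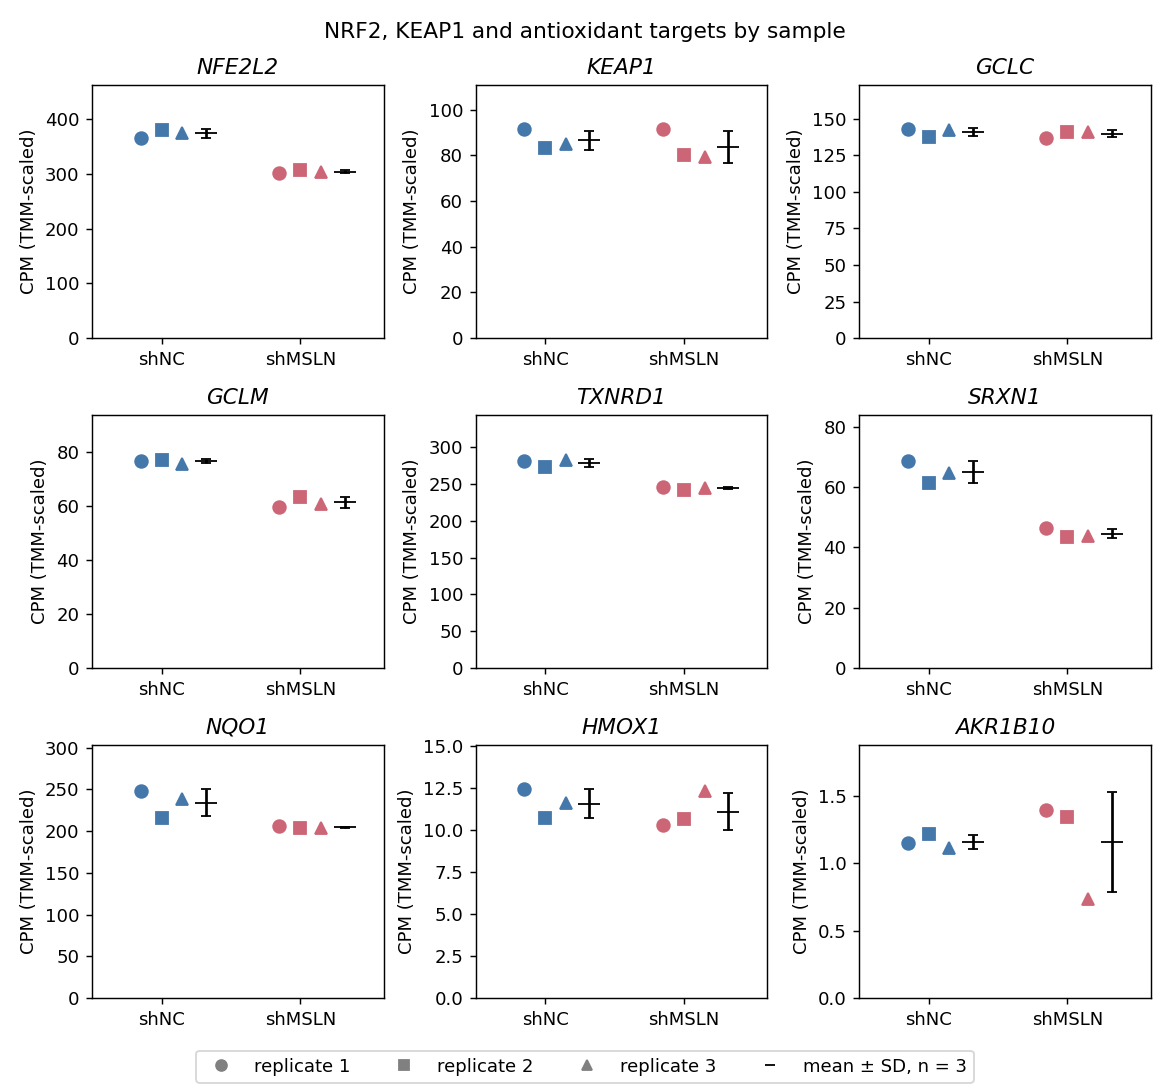
TMM-scaled CPM of each of the 9 genes in each sample, with the axis starting at 0, and the mean ± SD of 3 samples beside the points. The shMSLN samples lie below every shNC sample for NFE2L2, GCLM, TXNRD1, SRXN1 and NQO1, and the groups overlap for KEAP1, GCLC, HMOX1 and AKR1B10.

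Of the 2 regulators, NFE2L2 fell and KEAP1 was not called. NFE2L2 (Gene 4780, chr2:177227595-177392697, minus strand) had 366, 381 and 375 CPM in the shNC samples and 302, 308 and 303 CPM in the shMSLN samples. Each shMSLN sample was below each shNC sample, as held for 5 of the 9 genes. Among all genes tested, 23.5% were separated in that direction and 46.2% in either direction. The mean fell from 374 ± 7.58 to 304 ± 3.09 CPM, to 81.3% of the control level, with a log2 fold change of -0.30 (SE 0.034, edgeR adjusted p = 1.09e-05).

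KEAP1 (Gene 9817, chr19:10486120-10503741, minus strand), the substrate adaptor that hands NRF2 to the ubiquitin ligase, had 91.4, 83.4 and 84.8 CPM in shNC and 91.6, 80.1 and 79.1 CPM in shMSLN samples. The groups overlapped, and the highest KEAP1 value in each group came from replicate 1. The log2 fold change was -0.05 (95% interval -0.17 to 0.07, edgeR adjusted p = 0.542), an interval that leaves room for small changes in either direction. The ratio of NFE2L2 to KEAP1 in TPM was 4.45 ± 0.293 in shNC and 3.75 ± 0.324 in shMSLN samples.

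Of the 2 subunits of glutamate-cysteine ligase, the enzyme of the rate-limiting step of glutathione synthesis, GCLM fell and GCLC was not called. GCLM (Gene 2730, chr1:93885205-93909456, minus strand), the modifier subunit that raises the activity of the enzyme, had 76.9, 77.2 and 75.9 CPM in shNC and 59.9, 63.6 and 60.9 CPM in shMSLN samples. The groups were well apart, and the mean fell from 76.7 ± 0.698 to 61.5 ± 1.92 CPM, to 80.2% of the control level (log2 fold change -0.32, SE 0.044, edgeR adjusted p = 6.41e-05).

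GCLC (Gene 2729, chr6:53497341-53616970, minus strand), the catalytic subunit, had 143, 138 and 142 CPM in shNC and 137, 141 and 141 CPM in shMSLN samples. The values overlapped, and the log2 fold change was -0.01 with a 95% interval of -0.09 to 0.07 (edgeR adjusted p = 0.829), so that a fall of the size seen for GCLM lay outside the interval. The sign of the GCLC estimate turned under upper-quartile scaling (0.02) and without shMSLN replicate 1 (0.0017). The ratio of GCLM to GCLC in TPM was 0.382 ± 0.0105 in shNC and 0.306 ± 0.00668 in shMSLN samples, with no overlap between groups. This ratio was chosen after its values were seen, and it is given as a description.

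Both enzymes of thiol reduction fell. SRXN1 (Gene 140809, chr20:646615-653370, minus strand), which encodes sulfiredoxin and restores overoxidized peroxiredoxins, had 68.6, 61.4 and 64.6 CPM in shNC and 46.3, 43.6 and 43.7 CPM in shMSLN samples. Its mean fell from 64.9 ± 3.64 to 44.5 ± 1.57 CPM, to 68.6% of the control level, the largest change among the 9 genes (log2 fold change -0.54, SE 0.053, edgeR adjusted p = 2.29e-06). No shMSLN sample came near the lowest control.

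TXNRD1 (Gene 7296, chr12:104215779-104350305, plus strand), the cytosolic thioredoxin reductase that uses NADPH to recycle thioredoxin, had 281, 273 and 283 CPM in shNC and 246, 242 and 245 CPM in shMSLN samples. The groups did not overlap, and the spread within shMSLN was small. The mean fell from 279 ± 5.41 to 244 ± 1.84 CPM, to 87.6% of the control level (log2 fold change -0.19, SE 0.035, edgeR adjusted p = 6.73e-04). EID3, which lies within TXNRD1 on the same strand, shared 0% of the 50-base windows of TXNRD1 transcripts and was too low to be tested, and TXNRD1 was also called with its counts added.

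Of the 3 genes of quinone, heme and carbonyl detoxification, NQO1 fell. NQO1 (Gene 1728, chr16:69706996-69726951, minus strand), which reduces quinones in a single step that avoids reactive intermediates, had 248, 216 and 238 CPM in shNC and 205, 204 and 204 CPM in shMSLN samples. The shNC samples were more spread than the shMSLN samples, and the lowest of them, replicate 2, was still above every shMSLN sample. The mean fell from 234 ± 16.4 to 204.5 ± 0.833 CPM, to 87.4% of the control level (log2 fold change -0.19, SE 0.046, edgeR adjusted p = 4.51e-03).

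HMOX1 (Gene 3162, chr22:35380361-35394214, plus strand), the inducible heme oxygenase that breaks heme down to biliverdin, iron and carbon monoxide, had 12.4, 10.7 and 11.6 CPM in shNC and 10.3, 10.7 and 12.3 CPM in shMSLN samples. The groups overlapped over most of their ranges. The log2 fold change was -0.06 (95% interval -0.27 to 0.15, edgeR adjusted p = 0.656), an interval that includes a fall of the size seen for NQO1.

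AKR1B10 (Gene 57016, chr7:134527592-134541408, plus strand), an aldo-keto reductase that acts on retinal and other aldehydes, was at the limit of this depth. It had 1.15, 1.22 and 1.11 CPM in shNC and 1.40, 1.35 and 0.734 CPM in shMSLN samples, the lowest being 13.15 estimated reads. The log2 fold change was 0.0024 with a 95% interval of -0.60 to 0.61 (edgeR adjusted p = 0.995), and its sign turned with DESeq2, limma-voom and several left-out samples, so no direction is given. AKR1B15, its near neighbour at chr7:134549136-134579875, holds 9.69% of the 50-base windows of AKR1B10 transcripts, and how reads were divided between the pair is uncertain. AKR1B15 had 13.4, 13.03 and 13.2 CPM in shNC and 14.4, 17.5 and 17.0 CPM in shMSLN samples (log2 fold change 0.30, edgeR adjusted p = 0.0139). That call was lost without shMSLN replicate 2 (adjusted p = 0.0770) or 3 (0.0615) and with DESeq2 (0.0501). The summed counts of the pair rose from 14.4 ± 0.166 to 17.5 ± 1.54 CPM (log2 fold change 0.28, edgeR adjusted p = 0.0140), and nearly all of the sum was AKR1B15.

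**Figure D3:**
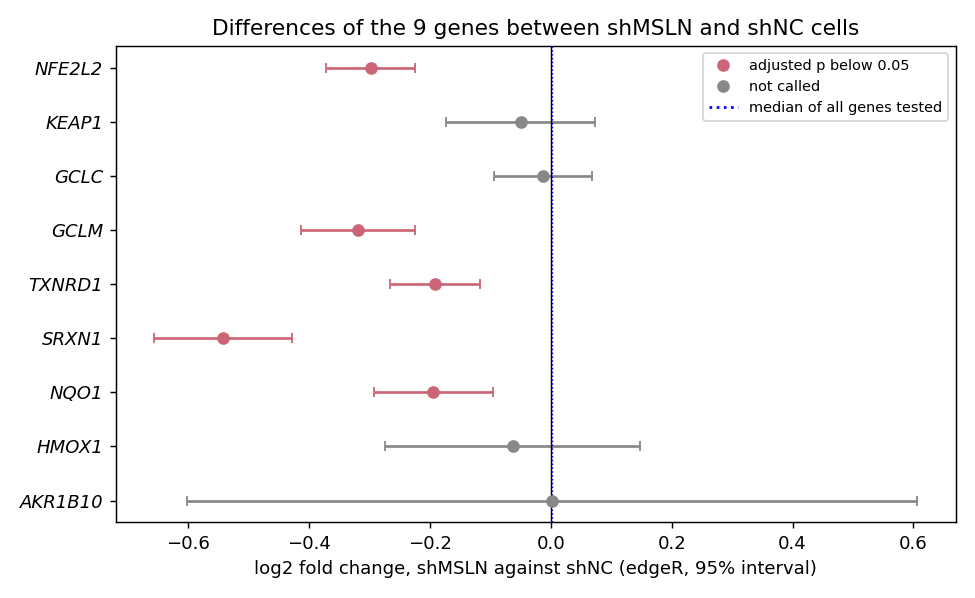
Log2 fold change of shMSLN against shNC for each of the 9 genes with its 95% interval from the edgeR fit, where red marks an adjusted p below 0.05. The intervals of NFE2L2, GCLM, TXNRD1, SRXN1 and NQO1 lie below 0, and the interval of AKR1B10 (-0.60 to 0.61) is the widest.

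All 5 lower genes stayed below the threshold when any one of the 6 samples was left out. Over these fits the log2 fold change was between -0.31 and -0.28 for NFE2L2, between -0.34 and -0.30 for GCLM, between -0.21 and -0.18 for TXNRD1, between -0.58 and -0.50 for SRXN1 and between -0.25 and -0.15 for NQO1. A further fit used shMSLN replicate 1 as the only knockdown sample, assumed to vary like the shNC samples. The log2 fold change was -0.31 for NFE2L2, -0.35 for GCLM and -0.48 for SRXN1 there. TXNRD1 (-0.18) and NQO1 (-0.19) had estimates similar to those of the main fit without passing the threshold. Far fewer of all genes were called in that fit of fewer samples. Summed over the 7 target genes, TPM was 569 ± 11.1 in shNC and 509 ± 4.53 in shMSLN samples, mostly from NQO1 and TXNRD1.

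The genes whose pattern over the 6 samples was most like that of NFE2L2, by Pearson's r of log2 CPM among 10501 genes with a mean of at least 10 CPM, were IL1RN (0.999), IGIP (0.999) and TNFAIP3 (0.999). Among the 9 genes, r with NFE2L2 was 0.99 for GCLM, 0.96 for TXNRD1, 0.95 for SRXN1 and 0.79 for NQO1, and at most 0.23 for the others. The points are the same 6 libraries in 2 groups, so r carries the difference between the groups, and it is given with no test.

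The machinery around NRF2 was read from a list of 18 regulators and partners, of which 17 were tested. In shMSLN cells 9 were lower, 1 was higher and 7 were not called, with a median log2 fold change of -0.14, against 18.0% lower and 16.6% higher among all genes tested. With DESeq2, 7 were lower and 0 higher, against 2059 lower and 1750 higher of 16573 genes. The largest fall was that of MAFF, a small MAF partner, from 31.1 ± 1.35 to 17.4 ± 1.43 CPM (log2 fold change -0.84, SE 0.071, edgeR adjusted p = 4.95e-07). BTRC, the F-box protein of a KEAP1-independent route of NRF2 degradation, fell by 0.46 on the log2 scale, and PGAM5, a mitochondrial phosphatase bound by KEAP1, fell by 0.37. SQSTM1 (p62), an autophagy receptor that can sequester KEAP1 and the most abundant of the list at 323 TPM, fell by 0.24 (edgeR adjusted p = 9.10e-05). The lower genes thus included factors known to limit NRF2 and factors known to assist it. RBX1, the RING subunit of cullin ligases, was the single rise (0.20, edgeR adjusted p = 0.0418), and this call was lost without shNC replicate 2 or 3 or shMSLN replicate 2 or 3 (adjusted p between 0.114 and 0.174) and with DESeq2 (0.0645).

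Beyond the 7 target genes, 53 further NRF2 targets were listed by function, and 50 of them were tested. They were split, with 20 lower, 9 higher and 21 not called, against 18.0% lower and 16.6% higher among all genes tested. Their median log2 fold change was -0.01, and it was 0.02 under upper-quartile scaling and -0.08 without shNC replicate 2. The median size of the change regardless of sign was 0.19, against 0.14 over all genes.

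**Figure D4:**
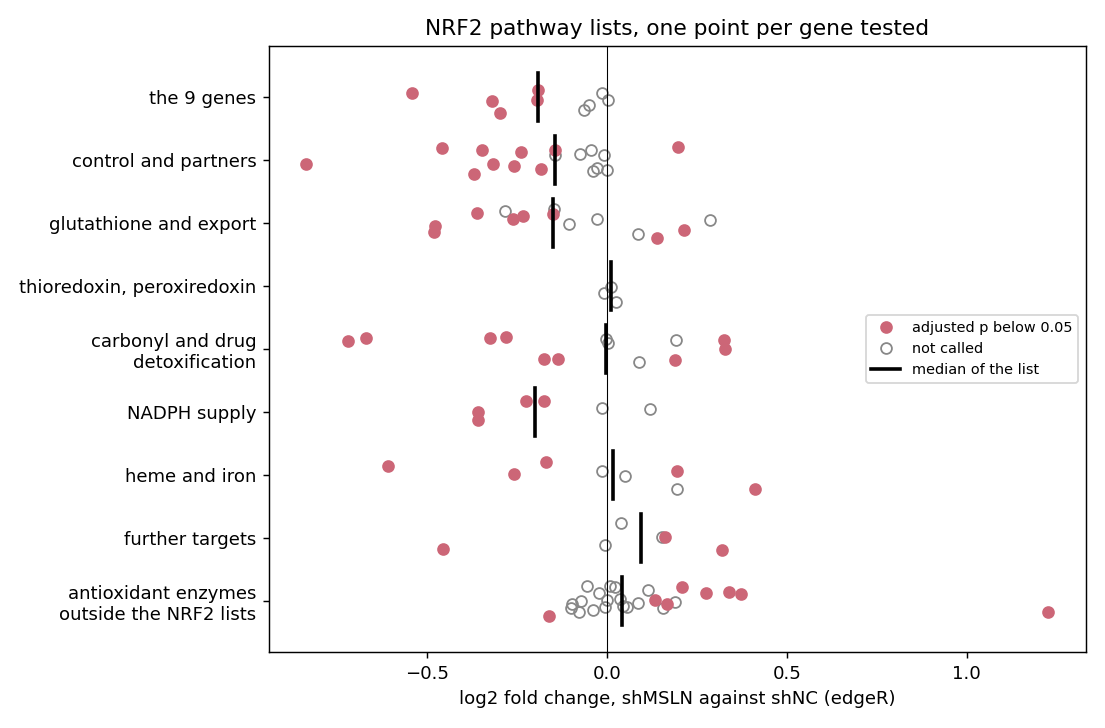
Log2 fold change of shMSLN against shNC for every tested gene of the 9-gene set and of the further lists, with filled points for an adjusted p below 0.05 and a bar at each list's median. The medians of the 9 genes, the NRF2 partners, the glutathione genes and the NADPH genes lie between -0.20 and -0.14, those of the other lists between -0.0013 and 0.10, and every list holds genes on both sides of 0. Differences between lists were not tested.

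In glutathione handling and export, 6 of 14 tested genes were lower (4 with DESeq2), 2 were higher and 6 were not called (median -0.15). Among all genes tested, 18.0% were lower and 16.6% higher. GPX2, a glutathione peroxidase of epithelia, fell from 217 ± 2.50 to 155 ± 3.83 CPM (log2 fold change -0.48, edgeR adjusted p = 1.66e-07). The conjugate exporter ABCC3 fell by 0.48 and the glutathione reductase GSR by 0.36 on the log2 scale. SLC7A11, the cystine importer that feeds glutathione synthesis, picked once its values were known, fell by 0.26 (edgeR adjusted p = 1.61e-04). The glutathione synthetase GSS went the other way (0.22, edgeR adjusted p = 1.32e-03). ABCC5 rose by 0.14, a call lost without shNC replicate 3 or shMSLN replicate 2 or 3 (adjusted p between 0.0533 and 0.0756). GSTP1, the most abundant gene of the list at 2952 TPM, had a log2 fold change of -0.15 (edgeR adjusted p = 0.0450), and its call was lost without shNC replicate 1 or 3 or shMSLN replicate 2 or 3 (adjusted p between 0.0925 and 0.174), with DESeq2 (0.222), with limma-voom (0.0508), with robust estimation (0.0735) and under upper-quartile scaling (0.102).

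The 3 other genes of the thioredoxin and peroxiredoxin group were not called by edgeR, DESeq2 or limma-voom, and 0 had an unadjusted edgeR p below 0.05. Among all genes tested, 34.6% were called by edgeR in either direction. PRDX1, the most abundant of them at 1621 TPM, had a log2 fold change of -0.0092 (edgeR adjusted p = 0.910), a sign that turned with scaling. Whether their changes differ from those of SRXN1 and TXNRD1 was not tested.

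Enzymes of NADPH supply, which thioredoxin reductase, glutathione reductase and NQO1 consume, were lower in 4 of 6 cases, with 2 not called (median -0.20), against 18.0% lower among all genes. The pentose phosphate enzyme TKT and the isocitrate dehydrogenase IDH1 each fell by 0.36 on the log2 scale (edgeR adjusted p = 1.50e-05 and 5.60e-06), and the malic enzyme ME1 fell by 0.23. TALDO1, the most abundant at 691 TPM, had a log2 fold change of 0.12 (edgeR adjusted p = 0.0591) and passed the threshold without shNC replicate 1 (4.93e-04), under upper-quartile scaling (0.0233) and with at least 10 counts required in every sample (0.0466).

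Carbonyl and drug detoxification genes were divided, with 6 of 13 lower, 3 higher and 4 not called (median -0.0013). Of all genes tested, 18.0% were lower and 16.6% higher. AKR1C2 fell from 506 ± 54.8 to 307 ± 9.005 CPM (log2 fold change -0.72, edgeR adjusted p = 4.04e-07), while AKR1C1 (0.33, adjusted p = 0.0353) and AKR1C3 (0.19, adjusted p = 8.65e-03) rose. These paralogs share sequence (38.1% of the 50-base windows of AKR1C2 are in AKR1C1), so the division of reads among them is uncertain. AKR1C3 shared less, with 3.61% of its windows in AKR1C2. Their summed level was 729 ± 67.8 CPM in shNC and 564 ± 11.98 CPM in shMSLN samples. The AKR1C1 call was lost without shNC replicate 1 or 3 or shMSLN replicate 2 or 3 (adjusted p between 0.0894 and 0.150) and that of AKR1C3 without shMSLN replicate 2 (0.0538). EPHX1, the microsomal epoxide hydrolase, rose by 0.33 (edgeR adjusted p = 1.94e-05), and the glucuronosyltransferase UGT1A6, whose exons are partly shared with its family, fell by 0.33 (1.91e-05). CYP4F11 had a log2 fold change of -0.67 at 2.40 CPM (edgeR adjusted p = 0.0153), lost without shMSLN replicate 1 (0.0513) or 2 (0.0652) and with DESeq2 (0.0661). ALDH3A1, the most abundant at 962 TPM, had -0.14 (edgeR adjusted p = 0.0217), lost without shNC replicate 3 or shMSLN replicate 2 or 3 (between 0.0738 and 0.125) and under upper-quartile scaling (0.0615).

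In heme and iron handling, 3 of 8 genes were lower, 2 were higher and 3 were not called (median 0.02). The shares among all genes tested were 18.0% lower and 16.6% higher. The ferritin subunits, which together store iron, moved apart. FTH1, the ferroxidase heavy chain, had 4216, 3675 and 4142 CPM in shNC and 2622, 2623 and 2643 CPM in shMSLN samples, a fall to 65.5% of the control level (log2 fold change -0.61, SE 0.043, edgeR adjusted p = 6.65e-08). FTL, the light chain, had 2128, 1724 and 1993 CPM in shNC and 2336, 2193 and 2159 CPM in shMSLN samples (log2 fold change 0.19, edgeR adjusted p = 0.0168). The FTL call was lost without shMSLN replicate 1 (0.0898), with shMSLN replicate 1 alone (0.0736), with robust estimation (0.0596) and with DESeq2 (0.133), and FTH1 was called in every fit run. The ratio of FTH1 to FTL in TPM was 1.47 ± 0.0543 in shNC and 0.841 ± 0.0374 in shMSLN samples. SLC40A1, the iron exporter ferroportin, rose by 0.41 (edgeR adjusted p = 1.87e-05), and the porphyrin transporter ABCB6 fell by 0.26. BLVRA, the biliverdin reductase downstream of HMOX1, had a log2 fold change of -0.17 (edgeR adjusted p = 0.0177), lost without shNC replicate 3 or shMSLN replicate 1 or 2 (adjusted p between 0.0571 and 0.0822) and with DESeq2 (0.0681).

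Of 6 further targets tested, 1 was lower, 2 were higher and 3 were not called (median 0.10), against 18.0% lower and 16.6% higher among all genes. TRIM16L fell by 0.46 on the log2 scale (edgeR adjusted p = 1.98e-05), and TRIM16, with 142 TPM the most abundant, was not called (-0.0052, adjusted p = 0.930). TRIM16L shares 39.4% of its 50-base windows with TRIM16, and their sum was 299 ± 13.4 CPM in shNC and 265 ± 3.18 CPM in shMSLN samples. RIT1, a small GTPase, rose by 0.32 (edgeR adjusted p = 3.92e-03), and ABHD4 rose by 0.16, a call lost without shNC replicate 1 or any one shMSLN replicate (adjusted p between 0.0507 and 0.0775) and with DESeq2 (0.0775).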

How the data were processed

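RNA-Seq was performed on 3 HCC1806/HM3/shNC and 3 HCC1806/HM3/shMSLN samples, grouped by the sample titles. The authors deposited estimated counts, TPM and FPKM values for 17860 genes. The estimated counts are not scaled to depth, whereas the authors' TPM values are scaled for transcript length and depth. The 6 FPKM columns were not used. The submitters' processing notes name GRCh38.p13, and the aligner, quantifier and annotation are not given in the sources used here. Only the shMSLN columns hold missing marks, for 1103 genes in replicate 1 and 695 in each of replicates 2 and 3. The 16573 genes with a value in every sample were kept.

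After rounding, the estimated counts of the groups were compared in R 4.3.3 by the quasi-likelihood F test of edgeR 4.0.16, using its default filter on low counts, TMM factors and no covariate, and p-values were adjusted over 14552 genes (Benjamini-Hochberg). Standard errors are the log2 fold change divided by the square root of F. CPM was computed on TMM-scaled libraries. The test was tried on simulated counts. Other settings tried were upper-quartile or RLE scaling, 2 other low-count filters, limma-voom, DESeq2 1.42.0, limma 3.58.1 on log2(TPM + 1), robust estimation, a replicate block, missing values as 0, summing genes that share reads and leaving out each sample. The fit with shMSLN replicate 1 alone was chosen after seeing the data.

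The 9 genes and all lists were chosen with earlier results of these data known. From each list, the text names up to 3 rises and 3 falls with the largest changes among called genes with a mean of at least 1 CPM, and the gene with the highest TPM. The 3 genes most like NFE2L2 were taken from those with a mean of at least 10 CPM. SLC7A11, the ratios and the sums are not covered by this rule, and they were picked once their values were known. Gene coordinates are from GENCODE release 29 (GRCh38), and promoters are from RefSeq (GRCh38.p14), a later patch of the same build.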

Additional observations from a re-analysis of the deposited data

How the results depend on the processing

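The calls of NFE2L2, GCLM, TXNRD1, SRXN1 and NQO1 held under every alternative except shMSLN replicate 1 alone, where those of TXNRD1 and NQO1 were lost, and 5 of the 9 genes were called in each fit without one sample. The number of all genes called was 5032, between 3695 and 5399 without one sample and 3809 with DESeq2. With shMSLN replicate 1 alone, chosen after seeing the data, 1797 genes, 3 of the 9 genes and 12 further NRF2 targets were called, from a fit with fewer samples. PGAM5, SQSTM1, GSS, ME1, ABCB6, RIT1 and PRDX3, whose calls held in every other fit, were not called there (edgeR adjusted p between 0.0514 for GSS and 0.384 for RIT1). RBX1, ABCC5, GSTP1, AKR1C1, AKR1C3, AKR1B15, CYP4F11, ALDH3A1, FTL, BLVRA, ABHD4 and SESN3, which also lost their calls elsewhere, were not called there either (between 0.0736 for FTL and 0.829 for AKR1C1). Further targets called numbered 29, and between 18 (without shMSLN replicate 2) and 30 without one sample. With DESeq2, 23 further targets were called, 16 lower and 7 higher, and 2059 of 16573 genes were lower and 1750 higher. MSLN stayed between -2.67 and -2.63 on the log2 scale without one sample.

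Estimates near 0 changed sign. KEAP1 was at 0.084 with shMSLN replicate 1 alone. GCLC was at 0.017 under upper-quartile scaling, 0.026 with limma on log2(TPM + 1), and between -0.029 and 0.0017 without one sample. AKR1B10 was at -0.0012 with DESeq2, -0.051 with limma-voom, -0.0078 with the replicate block, and between -0.16 and 0.24 without one sample. The cause was not tested.

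Both groups carry replicate numbers 1 to 3. Deviations of same-numbered samples from their group means correlated by 0.0718 to 0.165, so the numbers were not taken to pair the samples, although 6 of 6 samples correlated best with their own number, a hint from the data and not from the design. With the replicate block, 5789 genes, 5 of the 9 genes and 31 further NRF2 targets were called, and TALDO1 (edgeR adjusted p = 0.0110) and GPX4 (0.0175) passed the threshold. At about 1 CPM, as for AKR1B10, counting error limits what can be seen.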

Other observations

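Antioxidant enzymes that are not in the NRF2 lists were also counted. Of 26 tested, 7 were higher in shMSLN cells (4 with DESeq2), 1 was lower and 18 were not called, with a median log2 fold change of 0.04. Among all genes tested 16.6% were higher, 18.0% lower and 34.6% called in either direction, so the total called here was near that of all genes. SOD3, the secreted superoxide dismutase, had 10.2, 9.92 and 9.57 CPM in shNC and 23.0, 23.6 and 23.0 CPM in shMSLN samples, a rise to 234% of the control level (log2 fold change 1.23, SE 0.073, edgeR adjusted p = 1.42e-08). TXNRD3, a relative of TXNRD1, rose by 0.34 (edgeR adjusted p = 5.76e-04), and PRDX3, the mitochondrial peroxiredoxin, fell by 0.16 (3.83e-03). SESN3 rose by 0.37 (edgeR adjusted p = 0.0155), a call lost without shMSLN replicate 2 (0.0552) or 3 (0.0534), with robust estimation (0.183) and with DESeq2 (0.141). GPX4, the most abundant of these enzymes at 746 TPM, had a log2 fold change of 0.11 (edgeR adjusted p = 0.0693), and it passed the threshold without shNC replicate 1 (2.04e-03) and under upper-quartile scaling (0.0264).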
